A study of Mus musculus with 15 samples.

Results

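Gene expression in mouse embryoid bodies was compared between a Cbx7 depletion and its control on 1-colour Agilent arrays. The samples were chosen by their titles: 4 arrays of embryoid bodies named EB9 KD33 and 4 of EB9 control, 8 of the 15 arrays of the series. The other 7 held undifferentiated embryonic stem (ES) cells, 4 labelled KD33 and 3 control. The labels give the treatment of the KD33 bodies as Cbx7 depletion and that of the controls as none, while the design text writes the ES controls as shCtr. A single depletion, KD33, was profiled, so an effect of lowering Cbx7 and an effect particular to KD33 cannot be told apart. The ES cell line, the culture conditions and the meaning of the 9 in EB9 are not given in the sources used here. Each sample was 500 ng of total RNA, and each is labelled a biological replicate. P-values measure the spread between arrays of the same group, pooled over all 15 arrays of the series, the ES cells included.

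Embryoid bodies are aggregates in which ES cells leave pluripotency and form derivatives of the germ layers together with extraembryonic endoderm, so that one RNA sample holds many cell types. In such bulk samples, fewer cells of a type and less RNA per cell cannot be told apart. Cbx7 is a chromodomain protein of the canonical Polycomb repressive complex 1. It binds histone H3 trimethylated at lysine 27, the mark laid down by Polycomb repressive complex 2, and helps keep developmental genes silent. In ES cells it is the main Cbx subunit of that complex. It is also known as a repressor of the Cdkn2a locus.

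Levels are log2 processed signal minus the 75th percentile of the array, so that 0 is the signal of a fairly bright probe, and differences are KD33 minus control on that log2 scale. Of 28 markers of streak, blood, endothelium, endoderm, heart, neural, mesenchymal, epithelial and undifferentiated cells, 26 passed the filter on dim probes and 25 lay above background on all 8 arrays, Pax6 being the exception with 2 of 4 control arrays. Between 62.5% and 67.7% of features lay above background on 7 of the 8 arrays, and 75.4% did on control replicate 2. The replicate number of these 8 arrays is also the number of the slide. All controls lay at position 1 of their slide and all KD33 samples at position 2, so an effect of position cannot be told apart from one of group.

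The differences within slides 3 and 4 stood closer together than those of any other pair of slides. Over 7745 genes brighter than the 75th percentile on all 8 arrays, the KD33 minus control difference within slide 3 and that within slide 4 differed with an SD of 0.102. Repeated spots of 1 probe on these arrays give 0.094 for the same quantity. The other 5 pairs of slides gave SDs of 0.167 to 0.211. Compared directly, replicates 3 and 4 differed with an SD of 0.186 in the controls and 0.179 in KD33, more than the 0.069 and 0.064 of repeated spots, so the files are not copies. Whether they came from the same cultures was not tested. Counts of genes past the threshold are therefore given with 4 arrays a group. For the total and for many lists they are also given with replicates 3 and 4 averaged and counted as 1, which leaves 3 samples a group. Where a list has no such second count, its calls are not said to hold with 3 samples. The second count was added after the data were seen. Where leaving out 1 array moved a count of 3 or more list members by over 1.5 times, that array is named beside it. Counts of 1 or 2 members rest on single calls and were not followed array by array.

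The Cbx7 transcript was not detectably lower in the KD33 bodies. The brighter of 2 Cbx7 probes (mm9, chr15:79748605-79748664) read -4.78, -4.64, -4.46 and -5.35 in controls 1 to 4 and -5.14, -4.94, -4.69 and -5.1 in KD33 1 to 4. The groups overlapped, and the difference was -0.16 (SE 0.22, limma, adjusted p = 0.708). The other probe (chr15:79746240-79746299) lay above background on 2 of 4 arrays in each group and differed by -0.27 (SE 1.14, limma, adjusted p = 0.92). With the slide as a block it differed by -0.27 (SE 0.15, limma, adjusted p = 0.221). Within slides the brighter probe differed by -0.36, -0.3, -0.23 and 0.26. The same probes gave -0.13 (SE 0.23, limma, adjusted p = 0.733) and -1.91 (SE 1.23, limma, adjusted p = 0.256) in the ES cells. The second of these levels moved with the slide, and with the slide as a block, added after the data were seen, the ES KD33 arrays differed from control by -1.41 (SE 0.17, limma, adjusted p = 1e-04). Its differences on the 3 slides that hold both ES groups were -1.56, -1.3 and -1.57, with 3 of 3 control and 2 of 4 KD33 arrays above background. The brighter probe gave -0.03 in that fit (SE 0.13, limma, adjusted p = 0.868). The depletion was thus seen with 1 of the 2 probes in ES cells and was not detectable with either in EB9, and the groups below are named by their labels. The effect on the dimmer probe differed between the stages with the slide as a block (adjusted p = 0.00302) and not without it (adjusted p = 0.534).

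In all, 3211 of 21184 genes differed between the KD33 and control bodies (15.2%, limma, adjusted p under 0.05): 1686 were higher in KD33 (7.96%) and 1525 lower (7.2%). At least a 2-fold change was found for 151 of the higher and 144 of the lower genes. The median change of all genes was -0.01. The count fell to 1807 without KD33 replicate 4, to 1898 without KD33 replicate 3 and to 2035 without control replicate 4. With the 8 EB9 arrays fitted alone, so that the ES arrays did not enter the spread, it was 1133 (655 higher and 478 lower). List counts of that fit are given in the last section. Every KD33 array lay above every control array for 8.05% of all genes and below for 7.61%, the background for each gene described below as without overlap. With 3 samples a group 1054 genes passed, 601 higher (2.84%) and 453 lower (2.14%), and 1042 of them were among the 3211. With the slide as a block 5664 passed, 2862 higher (13.5%) and 2802 lower (13.2%). Blocked counts of a list, from that fit, are given as higher and then lower members where they differ by over 1.5 times in either direction. Some genes stand on more than 1 list, as Phlda2 does on the trophoblast and imprinted lists, so the counts of different lists overlap.

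**Figure D1:**
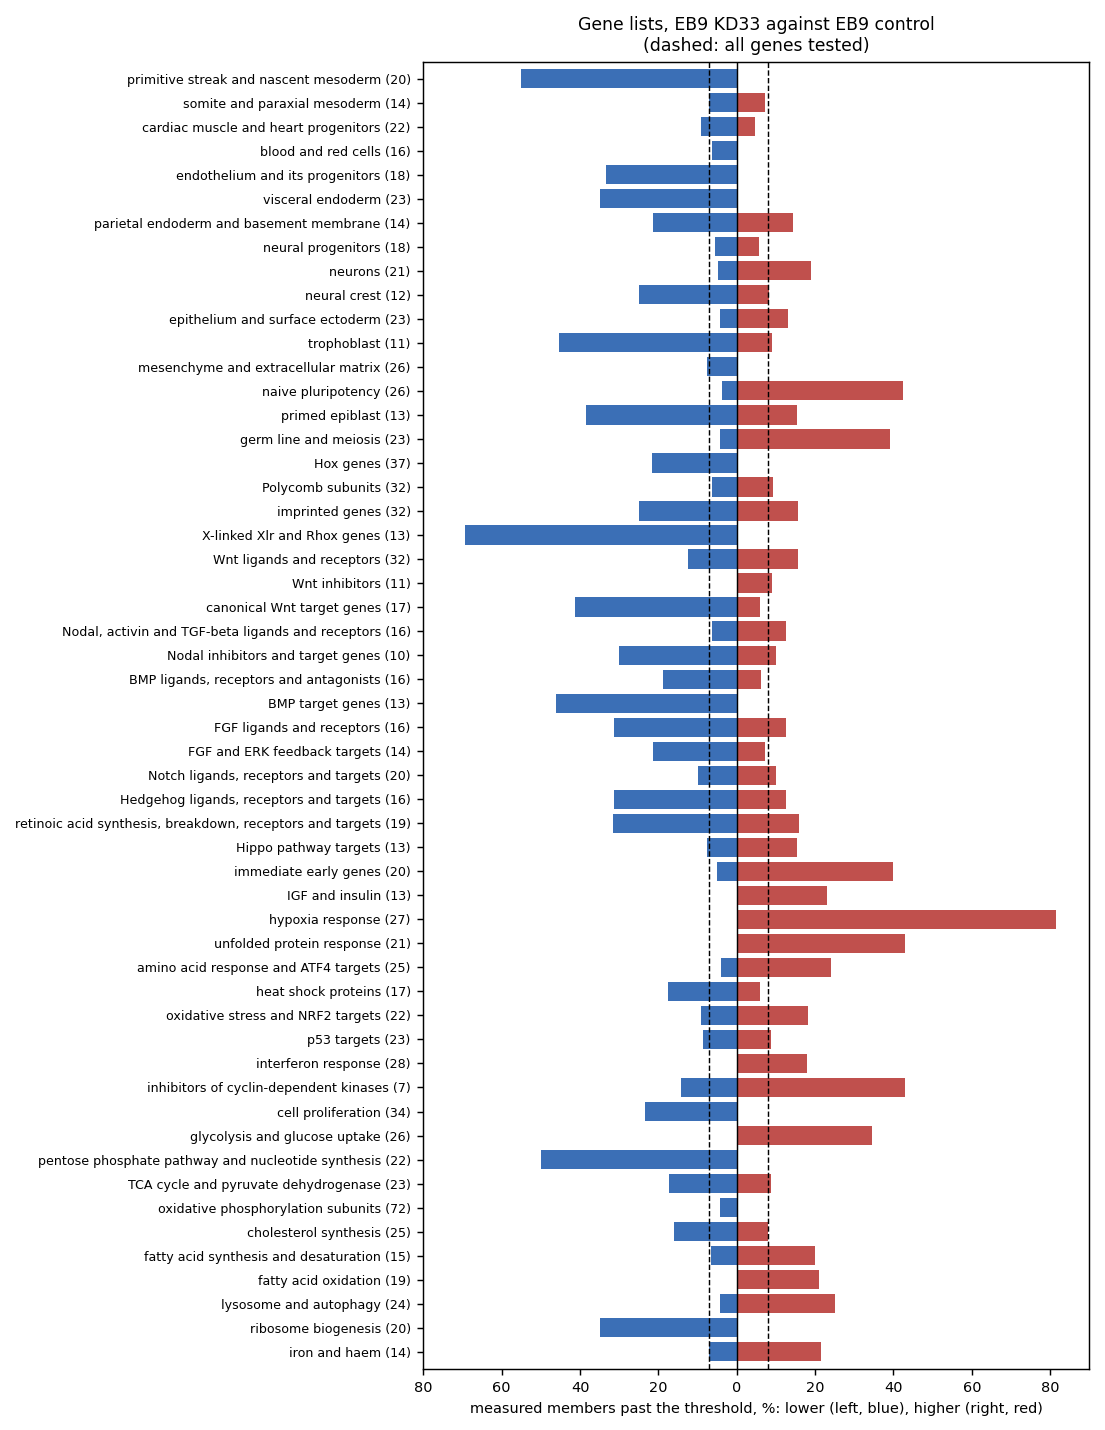
Share of the measured members of each gene list past the threshold in EB9 KD33 against EB9 control, in percent, with members lower in KD33 to the left in blue and members higher to the right in red. The number of measured members stands in brackets after each list, and the dashed lines mark all genes tested, 7.2% lower and 7.96% higher; the hypoxia response list, with 22 of 27 members higher, reaches farthest to the right.

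Genes of the primitive streak and nascent mesoderm, the transient cell state through which mesoderm and endoderm arise, were lower in KD33. Of 20 measured list members 11 fell and none rose (6 fell with 3 samples a group), and the median change was -0.89 against -0.01 for all genes. T, the T-box factor Brachyury (probe at mm9 chr17:8635302-8635361), read -2.76, -1.04, -1.95 and -1.92 in the controls and -4.39, -3.78, -5.32 and -5.37 in KD33. Every KD33 array lay below every control array, and the change was -2.79 (SE 0.36, limma, adjusted p = 0.000484). Mesp1, a basic helix-loop-helix factor of the earliest cardiac and cranial mesoderm, read -3.48, -2.15, -2.84 and -2.98 in controls and -4.29, -4.26, -4.74 and -4.84 in KD33, a change of -1.67 with no overlap (SE 0.22, limma, adjusted p = 0.000588). The T-box factor Eomes, which precedes Mesp1 in the embryo, fell by 0.89, with within-slide differences of -0.9, -0.81, -0.87 and -0.98. Cer1, a secreted inhibitor of Nodal, BMP and Wnt, was above background on all 4 control arrays and on no KD33 array, and was at least 2.83-fold lower. The homeobox gene Cdx1, a Wnt-responsive regulator of axial patterning, fell by 1.16. The ligands Fgf8, Wnt3 and Wnt8a of this list are given with their pathways.

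Of the lists of later mesoderm, endothelium and its progenitors had 6 of 18 members lower and none higher (3 lower with 3 samples a group), with a median change of -0.22. Etv2, the ETS factor that starts the blood and endothelial programme, read -0.57, -0.18, -0.22 and -0.21 in controls and -1.58, -0.73, -1.31 and -1.54 in KD33. The groups did not overlap and the change was -0.99 (SE 0.16, limma, adjusted p = 0.00158). The TGF-beta co-receptor Eng fell by 0.59 and the endothelial factors Sox17 and Sox18 fell by 0.58 and 0.42. Of 16 members of the blood list 1 fell and none rose (blocked 0 and 3). The embryonic globin Hbb-bh1 read 7.64, 6.76, 6.9 and 6.94 in controls and 7.4, 6.61, 7.36 and 7.5 in KD33, overlapping groups with a difference of 0.16 (SE 0.29, limma, adjusted p = 0.794).

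Among somite, cardiac and mesenchymal genes single members moved in either direction. Of 14 somite genes 1 rose and 1 fell (blocked 3 and 2), with a median of 0.07. Pax1, a marker of the sclerotome, read -5.08, -5.98, -5.93 and -5.8 in controls and -8.06, -8.3, -8.12 and -8.28 in KD33. No KD33 array was above background, so its fall of 2.49 stands for a reduction of at least 2.11-fold (limma, adjusted p = 6.41e-06). Foxc2, a forkhead factor of paraxial mesoderm, rose by 0.57 (SE 0.07, limma, adjusted p = 0.000239) with no overlap. The cardiac list had 1 of 22 members higher and 2 lower, with a median of -0.06, and its higher member, the atrial peptide Nppa, changed by 1.29 but lost the call without KD33 replicate 3 or 4 or control replicate 4 (adjusted p up to 0.0682). Of 26 genes of mesenchyme and extracellular matrix 2 were lower and none higher (blocked 4 and 4), and Col1a1, a chain of collagen I, differed by 0.12 (limma, adjusted p = 0.277). Thy1, a surface glycoprotein of mesenchymal and neural cells, fell by 0.56 on that list.

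Visceral endoderm, the absorptive epithelium that covers embryoid bodies, had 8 of 23 members lower and none higher, with a median of -0.48. These calls depended on single arrays: without 1 array the count was 2 (KD33 replicate 3 or 4), 3 (control 2), 4 (KD33 1, control 1 or control 4) or 13 (KD33 2), and with 3 samples a group 1 member passed. Cubn, the endocytic receptor cubilin, read 1.62, 1.71, 1.36 and 1.41 in controls but -0.42, 1.47, -0.06 and -0.01 in KD33. KD33 replicate 2 lay within the control range, and the change was -1.28 (SE 0.3, limma, adjusted p = 0.0142). The list medians within slides 1 to 4 were -1.3, -0.04, -0.45 and -0.44. Trf, the iron carrier transferrin, fell by 0.72 without overlap. Afp, the alpha-fetoprotein of this epithelium, differed by 0.3 (limma, adjusted p = 0.182), with -0.4 on slide 1 and 0.59, 0.52 and 0.47 on the other slides. On the parietal endoderm list 2 of 14 members rose and 3 fell (1 fell without KD33 3 or 4), among them the basement membrane collagen Col4a1, which fell by 0.25.

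Neural and ectodermal lists gave few calls. Of 18 neural progenitor genes 1 rose and 1 fell (blocked 2 and 1), and of 21 neuronal genes 4 rose and 1 fell (3 and 0 with 3 samples a group, blocked 5 and 3). Stmn4, a neuronal regulator of microtubules, read -0.99, -1.32, -1.49 and -1.39 in controls and 0.32, 0.08, 0.46 and 0.46 in KD33. That is a rise of 1.62 without overlap (SE 0.14, limma, adjusted p = 4.84e-05). The neuropeptide gene Nts rose by 1.64 and the axonal microtubule protein gene Mapt by 0.54, both without overlap. The median of the neuronal list was -0.09. Of 12 neural crest genes 1 rose and 3 fell (1 fell without KD33 1, 3 or 4 and 5 without KD33 2, blocked 1 and 5), among them the homeobox gene Msx1, which fell by 0.56. The epithelial list had 3 of 23 members higher and 1 lower (blocked 6 and 1). The desmosomal protein gene Dsp rose by 0.46, and Rab25, a GTPase of epithelial vesicle recycling, fell by 0.6. Of 11 trophoblast genes 1 rose and 5 fell (1 and 4 with 3 samples a group). Phlda2, an imprinted growth restrictor of the placenta, fell by 1.22, and Plac1, an X-linked placental gene, fell by 0.82.

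Naive pluripotency genes were higher in KD33. Of 26 members 11 rose and 1 fell, with a median of 0.25 (6 and 0 with 3 samples a group, and 6 higher without KD33 replicate 4). Dppa3, a maternal factor that protects methylation in the zygote, read -2.59, -1.91, -1.95 and -2.13 in controls and -1.35, -0.82, -1.04 and -1.13 in KD33, a rise of 1.06 without overlap (SE 0.15, limma, adjusted p = 0.000753). The Krüppel-like factor Klf2 read 2.06, 1.93, 2.05 and 1.88 in controls and 2.62, 2.55, 2.82 and 2.77 in KD33, a rise of 0.71 without overlap (SE 0.09, limma, adjusted p = 0.000456). Prdm14, which represses primed-state and methylation genes, rose by 0.67, and the orphan nuclear receptor gene Nr0b1 rose by 0.76. The core factor Nanog did not pass: it read 0.24, 0.9, 0.66 and 0.73 in controls and 0.44, 0.76, 0.54 and 0.55 in KD33, with a difference of -0.06 (SE 0.12, limma, adjusted p = 0.815). Tbx3, the 1 member that was lower, fell by 0.76. Primed epiblast genes gave 2 higher and 5 lower of 13 (0 and 2 with 3 samples a group, and 3 lower without KD33 1, 3 or 4 or control 4). Dnmt3b, a de novo DNA methyltransferase, fell by 0.86 and Fgf15 fell by 1.07, both without overlap.

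Germ line and meiosis genes were also higher, 9 of 23, with 1 lower and a median of 0.34 (4 and 1 with 3 samples a group). Stra8, the retinoic acid-induced gatekeeper of meiosis (probe at mm9 chr6:34889237-34889296), read -2.21, -1.38, -1.84 and -1.93 in controls and 0.1, -0.36, -0.21 and -0.17 in KD33. It rose by 1.68 without overlap (SE 0.14, limma, adjusted p = 4.84e-05). Stk31, a germ cell kinase gene, rose by 0.63, Dazl, an RNA-binding regulator of germ cells, by 0.55 and Ddx4, the helicase Vasa, by 0.58. Ddx4 groups overlapped, and its within-slide differences were 0.75, 0.18, 0.68 and 0.71. The testis tubulin gene Tuba3a fell by 0.61.

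**Figure D2:**
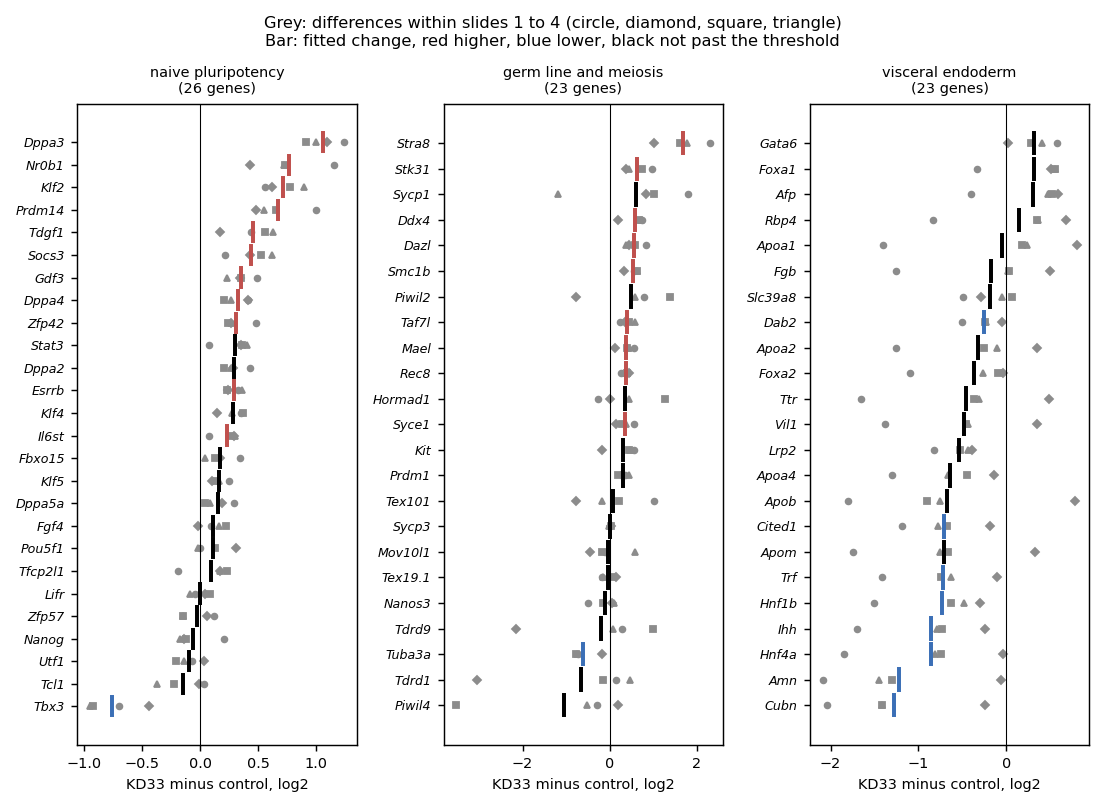
KD33 minus control differences on the log2 scale for each measured member of the naive pluripotency, germ line and meiosis, and visceral endoderm lists. Grey symbols are the differences within slides 1 to 4, and bars are fitted changes, red where higher, blue where lower and black where not past the threshold; Stra8 lies at 1.68 and Dppa3 at 1.06, and visceral endoderm members spread widely between slides, as Cubn does from -2.04 on slide 1 to -0.24 on slide 2.

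Hox genes and X-linked Xlr and Rhox genes were lower in KD33, and imprinted genes moved in either direction. Of 37 Hox genes 8 fell and none rose (6 fell with 3 samples a group, blocked 0 and 13), with a median of -0.33. Hoxb6, Hoxb7 and Hoxb9, neighbours in the Hoxb cluster on chromosome 11, fell by 1.26, 1.04 and 1.36, each without overlap. Of 32 imprinted genes 5 rose and 8 fell (1 and 6 with 3 samples a group), with a median of 0.02, 17 changes being positive and 13 negative. The count of rises was 2 without KD33 4, 3 without KD33 3, control 3 or control 4, and 8 without KD33 2. The imprinted genes named next are all from those that fell. Mest, an imprinted mesodermal hydrolase gene (probe at mm9 chr6:30698279-30698338), read 2.63, 2.86, 3.18 and 3.11 in controls and 0.55, 0.73, 0.74 and 0.64 in KD33. Its fall of 2.28 was without overlap (SE 0.1, limma, adjusted p = 1.19e-07). Nnat, Plagl1 and the long noncoding RNA gene H19 fell by 1.42, 1.34 and 1.03. The X-linked Xlr and Rhox genes, clustered families expressed in lymphoid, germ and placental cells, had 9 of 13 members lower (8 with 3 samples a group) and a median of -1.14. Xlr4b read -3.77, -3.55, -4.42 and -4.13 in controls and -7.62, -5.97, -7.24 and -6.72 in KD33, where 1 of 4 arrays was above background. Its change was -2.92 (SE 0.28, limma, adjusted p = 8.4e-05). Xlr4a fell by 2.6, with 1 of 4 KD33 arrays above background, and Xlr3b by 2 with all 4 above it. The sizes for Xlr4b and Xlr4a rest on readings at background in 3 KD33 arrays. Members of these families share sequence, so transcripts of near-identical copies cannot be told apart on the array. Rhox5, the founding member of the reproductive homeobox cluster, fell by 0.94. Of 32 Polycomb subunits 3 rose and 2 fell (0 and 0 with 3 samples a group; 0 rose without KD33 4, 1 without KD33 3 or control 3, and 6 without KD33 2). Blocked counts were 9 higher and 3 lower. Bmi1, which belongs to the catalytic core of Polycomb repressive complex 1, fell by 0.26, with within-slide differences of -0.04, -0.44, -0.34 and -0.21.

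Wnt signalling, in which secreted Wnt ligands stabilise beta-catenin and switch on Tcf and Lef target genes, drives formation of the streak. Ligand and receptor genes moved in either direction, 5 of 32 higher and 4 lower (5 and 0 with 3 samples a group, and 2 lower without KD33 4, blocked 6 and 7). The ligand genes Wnt3 and Wnt8a, which act in the streak, were lower. Wnt8a was above background on 3 control arrays and no KD33 array and was at least 3.46-fold lower. Wnt3 fell by 1.17, a call lost without KD33 replicate 4 (adjusted p = 0.0543). The receptor gene Fzd10 fell by 1.45, whereas the receptor gene Fzd1 rose by 0.59 and Rspo2, a secreted enhancer of Wnt reception, rose by 0.84. Of 17 measured targets 7 fell and 1 rose (5 and 0 with 3 samples a group, blocked 2 higher and 9 lower), with a median of -0.6, and the list medians within slides 1 to 4 were -0.54, -0.51, -0.59 and -0.61. T of the streak list is also among these targets, as their largest fall (-2.79), so the lists are not separate.

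Sp5, a zinc finger gene that Tcf factors induce directly, read -0.81, 0.06, -0.98 and -0.77 in controls and -2.06, -1.18, -1.93 and -1.77 in KD33, a fall of 1.11 without overlap (SE 0.22, limma, adjusted p = 0.00542). The 250 bases before its start hold 1 match to the Tcf/Lef core CTTTGAT (both strands searched), shown in capitals with GRCm38.p6 coordinates from RefSeq (chr2:70474673-70474922, plus strand). Here and below, where a gene has several RefSeq starts, the start with the most matches is shown.
Sp5: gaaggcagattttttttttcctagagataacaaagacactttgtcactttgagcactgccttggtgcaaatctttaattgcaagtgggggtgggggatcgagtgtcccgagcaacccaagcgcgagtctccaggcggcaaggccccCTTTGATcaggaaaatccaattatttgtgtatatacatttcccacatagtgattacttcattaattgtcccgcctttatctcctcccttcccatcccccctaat
Of 10 Wnt targets with a RefSeq promoter sequence, 2 held this motif (20%), and so did 379 of 13271 tested genes (2.86%). Of 5 targets called lower 2 held it (40%). The match is a description of the letters and does not show binding. Nkd1, a feedback inhibitor of the pathway, read 1.05, 1.12, 1.14 and 1.21 in controls and 0.5, 0.41, 0.27 and 0.29 in KD33, a fall of 0.76 without overlap (SE 0.06, limma, adjusted p = 3.76e-05). The inhibitor gene Apcdd1 fell by 1.31 and the transcription factor gene Lef1 by 0.73. Axin2, the most used reporter of the pathway, read -3.1, -1.06, -1.45 and -2.18 in controls and -3.87, -1.79, -2.58 and -3.39 in KD33. Its groups overlapped and it missed the threshold (-0.96, SE 0.56, limma, adjusted p = 0.291), but with the slide as a block it passed (adjusted p = 0.00171), its within-slide differences being -0.77, -0.73, -1.13 and -1.21.

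Nodal signalling, which acts through activin receptors and Smad2 to pattern the streak and endoderm, gave few calls. Of 16 ligand and receptor genes 2 rose and 1 fell (0 and 1 with 3 samples a group, blocked 3 and 2), and of 10 inhibitors and targets 1 rose and 3 fell (0 and 3, blocked 2 and 3). The first list had 12.5% higher and 6.25% lower, near the 7.96% and 7.2% of all genes. The second had 10% and 30%. Their medians were 0.06 and 0. Cfc1, the EGF-CFC co-receptor Cryptic, read 1.55, 1.9, 1.62 and 1.74 in controls and -0.49, 0.88, -0.18 and -0.13 in KD33. It fell by 1.68 without overlap (SE 0.22, limma, adjusted p = 0.000456). The ligand Nodal itself differed by -0.2 and did not pass (SE 0.09, limma, adjusted p = 0.161). The ligand gene Gdf3 rose by 0.35. Foxh1, the forkhead partner of Smad2 at target genes, fell by 0.49, without overlap.

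BMP signalling, which specifies ventral mesoderm through Smad1 and Smad5, was lower at its targets: 6 of 13 fell and none rose (3 fell with 3 samples a group, blocked 1 and 6), with a median of -0.23. The inhibitor of differentiation Id3 read 2.68, 2.8, 2.74 and 2.81 in controls and 2.17, 2.63, 2.22 and 2.38 in KD33, a fall of 0.4 without overlap (SE 0.09, limma, adjusted p = 0.0127). Gata2, a blood and trophoblast factor, fell by 0.48. Upstream, 1 of 16 ligand, receptor and antagonist genes rose and 3 fell (1 and 2 with 3 samples a group, blocked 2 and 4). Bmper, a secreted modulator of BMP, read -1.6, -1.61, -1.8 and -1.79 in controls and -2.74, -2.39, -2.58 and -2.54 in KD33, a fall of 0.86 without overlap (SE 0.08, limma, adjusted p = 5.33e-05). The ligand gene Bmp7 fell by 0.42 and the ligand gene Gdf6 rose by 0.88. The main ligand gene Bmp4 differed by -0.26, just outside the threshold (SE 0.08, limma, adjusted p = 0.0535) and inside it with the slide as a block (adjusted p = 0.00573).

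FGF signalling, which works through receptor kinases and ERK, had 5 of 16 ligand and receptor genes lower and 2 higher (4 lower and 0 higher with 3 samples a group, 3 lower without KD33 3 and 8 lower without KD33 2). Fgf8, the streak ligand, read -0.67, 0.19, -0.47 and -0.42 in controls and -2.13, -0.95, -1.88 and -1.81 in KD33, a fall of 1.35 without overlap (SE 0.23, limma, adjusted p = 0.0022). Fgf3 read -3.07, -2.72, -3.09 and -2.99 in controls and -4.47, -3.69, -4.62 and -4.44 in KD33, a fall of 1.34 without overlap (SE 0.16, limma, adjusted p = 0.000346). The ligand gene Fgf9 rose by 0.67. Among 14 feedback genes of FGF and ERK 1 rose and 3 fell (1 fell without KD33 1 or 3 or control 2, 3 or 4). The ETS factor gene Etv4, a transcriptional output of FGF, read 0.08, -0.01, 0.02 and 0.13 in controls and -1.02, -0.62, -1.02 and -0.89 in KD33, a fall of 0.95 without overlap (SE 0.09, limma, adjusted p = 5.52e-05). The ERK phosphatase gene Dusp6 differed by -0.05 (limma, adjusted p = 0.68), and Dusp5, another phosphatase of ERK, rose by 0.54.

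Notch signalling, in which a membrane-bound ligand releases the intracellular part of the receptor on a neighbouring cell, gave 2 of 20 genes higher and 2 lower (blocked 3 and 6). Nrarp, a target that limits the pathway, read -2.35, -2.04, -2.12 and -2.08 in controls and -3.3, -3.01, -3.37 and -3.15 in KD33, a fall of 1.06 without overlap (SE 0.08, limma, adjusted p = 4.84e-05). The endothelial ligand gene Dll4 read -2.89, -3.12, -2.97 and -3.23 in controls and -2.23, -2.12, -1.64 and -2.1 in KD33, a rise of 1.03 without overlap (SE 0.15, limma, adjusted p = 0.000849). The ligand and the target thus moved in opposite directions. Both passed with 3 samples a group as well.

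Of 16 Hedgehog genes 2 rose and 5 fell (1 and 0 with 3 samples a group; 1 fell without KD33 3 or 4 or control 2, 2 without control 3 or 4, and 3 without KD33 1 or 2). The transcriptional effector and target Gli1 fell by 0.48 with overlapping groups, and the receptor-associated gene Cdon rose by 0.37. Of 19 genes of retinoic acid metabolism and response, the morphogen made from vitamin A, 3 rose and 6 fell (1 and 3 with 3 samples a group; 1 rose without KD33 4 or control 3, and 3 fell without KD33 4). Cyp26a1, which degrades retinoic acid and is induced by it, read 0.22, 0.39, 0.04 and 0.16 in controls and -0.72, -0.18, -0.76 and -0.61 in KD33, a fall of 0.77 without overlap (SE 0.12, limma, adjusted p = 0.0012). The vitamin A transporter gene Stra6 fell by 1.45. Stra8, on the germ line list above, rose, so genes known to respond to retinoic acid moved in both directions. Among 13 Hippo pathway targets 2 rose and 1 fell. Amot, a junctional scaffold of the pathway, fell by 0.5.

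**Figure D3:**
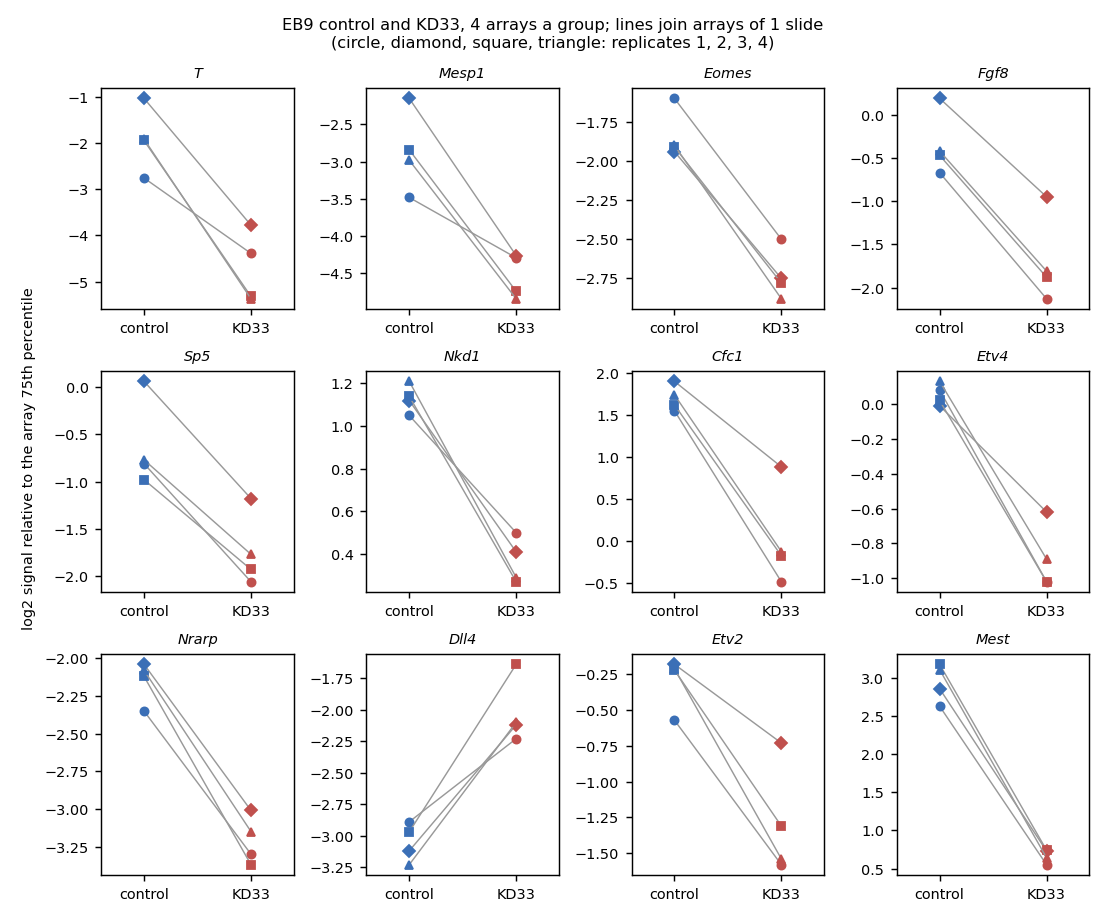
Level of 12 streak, signalling and imprinted genes on each of the 4 control (blue) and 4 KD33 (red) arrays, as log2 signal above or below the array's own 75th percentile, with a line joining the arrays of 1 slide and a symbol for each replicate. In the panels for T, Mesp1, Eomes, Fgf8, Sp5, Nkd1, Cfc1, Etv4, Nrarp, Etv2 and Mest every KD33 array lies below every control array, and for Dll4 above.

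Immediate early genes, transcription factor genes induced within minutes by growth factors and stress, were higher: 8 of 20 rose and 1 fell, with a median of 0.36 (7 and 0 with 3 samples a group). Fos read -2.83, -2.3, -2.63 and -2.73 in controls and -2.26, -1.89, -1.85 and -1.99 in KD33, a rise of 0.62 without overlap (SE 0.11, limma, adjusted p = 0.00324). Ier3, an early response gene linked to survival, read 1.02, 1.02, 0.76 and 0.85 in controls and 1.53, 1.66, 1.86 and 1.87 in KD33, a rise of 0.82 without overlap (SE 0.09, limma, adjusted p = 0.000123). Junb, Fosl2 and Atf3 each rose by 0.63. Egr1, a zinc finger gene induced by ERK, differed by -0.04 (limma, adjusted p = 0.819).

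The hypoxia response had a larger share of members past the threshold than any other list. Low oxygen stabilises the factor Hif1a, which binds the core letters ACGTG or GCGTG at genes of angiogenesis, mitophagy and glycolysis. Of 27 measured members 22 rose and none fell (19 with 3 samples a group, 20 to 22 when any 1 array was left out, and blocked 24 and 1), with a median of 0.54. The list medians within slides 1 to 4 were 0.46, 0.38, 0.69 and 0.66. Ankrd37, an ankyrin-repeat gene and common hypoxia marker (probe at mm9 chr8:47082404-47082463), read 2.96, 2.61, 2.55 and 2.61 in controls and 3.6, 3.34, 3.51 and 3.68 in KD33, a rise of 0.85 without overlap (SE 0.09, limma, adjusted p = 0.000186). Ero1a, an oxidase of the endoplasmic reticulum (probe at mm9 chr14:45904192-45904251), read -0.26, -0.03, -0.41 and -0.43 in controls and 0.75, 0.52, 0.87 and 0.76 in KD33, a rise of 1.01 without overlap (SE 0.09, limma, adjusted p = 5.52e-05). Bnip3, a receptor for mitophagy, read 5.43, 5.08, 5.07 and 5.27 in controls and 5.85, 5.54, 5.76 and 5.89 in KD33, a rise of 0.54 without overlap (SE 0.11, limma, adjusted p = 0.00542). The angiogenic ligand gene Vegfa rose by 0.83, the stress-responsive gene Ndrg1 by 0.74 and the nuclear receptor gene Rora by 0.72, each without overlap.

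The 250 bases before the start of 3 of these genes are shown because each holds several copies of the Hif core letters, on either strand, in capitals (RefSeq, GRCm38.p6). Ankrd37 lies at chr8:45999851-46000100, minus strand, Bnip3 at chr7:138909507-138909756, minus strand and Ero1a at chr14:45318573-45318822, minus strand.
Ankrd37: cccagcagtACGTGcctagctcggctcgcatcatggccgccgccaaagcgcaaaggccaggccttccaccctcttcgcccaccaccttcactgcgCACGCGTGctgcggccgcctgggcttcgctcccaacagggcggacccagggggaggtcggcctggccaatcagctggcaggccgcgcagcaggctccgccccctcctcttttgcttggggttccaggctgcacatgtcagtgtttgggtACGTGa
Bnip3: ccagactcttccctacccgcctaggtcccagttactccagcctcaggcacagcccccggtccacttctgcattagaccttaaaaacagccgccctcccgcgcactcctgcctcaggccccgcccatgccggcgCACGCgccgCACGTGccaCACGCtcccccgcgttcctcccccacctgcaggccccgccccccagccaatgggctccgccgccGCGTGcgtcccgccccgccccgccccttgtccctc
Ero1a: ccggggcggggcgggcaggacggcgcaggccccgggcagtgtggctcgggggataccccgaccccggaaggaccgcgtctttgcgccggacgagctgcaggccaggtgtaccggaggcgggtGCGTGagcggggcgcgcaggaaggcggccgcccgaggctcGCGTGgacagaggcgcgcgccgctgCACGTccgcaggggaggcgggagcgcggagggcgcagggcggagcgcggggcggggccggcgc
The letters ACGTG or GCGTG were matched 4, 5 and 3 times in these windows, a palindromic CACGTG counting on both strands and overlapping matches counting separately. Of 22 list members with a RefSeq promoter sequence, 21 held at least 1 match (95.5%), against 7484 of 13271 tested genes (56.4%). Of 18 members called higher 17 did (94.4%). So short a motif is common, and a match shows neither binding nor a cause.

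The unfolded protein response, which raises chaperones when proteins misfold in the endoplasmic reticulum, had 9 of 21 members higher and none lower, with a median of 0.18. The count was 4 without KD33 replicate 4, 5 without KD33 replicate 3 or control replicate 4, and 3 with 3 samples a group. Ddit3, the pro-apoptotic factor Chop, read -0.15, -0.19, -0.46 and -0.34 in controls and 0.19, 0.13, 0.36 and 0.46 in KD33, a rise of 0.57 without overlap (SE 0.09, limma, adjusted p = 0.00188). Herpud1, a component of the degradation machinery of the endoplasmic reticulum, read 1.26, 1.43, 1.41 and 1.34 in controls and 1.79, 1.82, 2.01 and 1.84 in KD33, a rise of 0.5 without overlap (SE 0.06, limma, adjusted p = 0.000433). The co-chaperone gene Dnajb9 rose by 0.43. The chaperone gene Hspa5 (BiP) changed by 0.18 without overlap, a call lost without KD33 replicate 3 or 4 or control replicate 4 (adjusted p up to 0.0548). The 250 bases before its start (chr2:34771840-34772089, plus strand, GRCm38.p6, RefSeq) hold the full endoplasmic reticulum stress element, CCAAT followed after any 9 bases by CCACG, in capitals.
Hspa5: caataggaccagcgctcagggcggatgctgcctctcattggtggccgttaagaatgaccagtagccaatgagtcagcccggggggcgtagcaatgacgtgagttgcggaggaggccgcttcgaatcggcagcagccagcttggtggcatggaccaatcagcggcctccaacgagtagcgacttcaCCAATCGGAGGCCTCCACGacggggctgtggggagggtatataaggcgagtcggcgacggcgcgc
This element was found before 7 of 18 list members (38.9%) and before 24 of 13271 tested genes (0.181%), on either strand. Of 9 members called higher 3 held it (33.3%). The list holds known genes of this response, so the excess over all genes describes the list and not KD33.

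Atf4 couples this response to amino acid shortage. Of 25 Atf4 and amino acid response genes 6 rose and 1 fell (4 and 0 with 3 samples a group, blocked 7 and 2). Cth, the cystathionine lyase that makes cysteine, read -1.19, -0.87, -1.36 and -1.17 in controls and -0.49, -0.54, -0.52 and -0.46 in KD33, a rise of 0.64 without overlap (SE 0.08, limma, adjusted p = 0.000472). The stress genes Nupr1 and Trib3 rose by 0.57 and 0.52, and Atf4 itself, on the unfolded protein list, rose by 0.37. The asparagine synthetase gene Asns, another target, differed by -0.01 (limma, adjusted p = 0.958). Heat shock genes were split: of 17, 1 rose and 3 fell (1 and 1 with 3 samples a group, and 1 fell without KD33 3 or 4 or control 4). The inducible Hspa1a rose by 1.07 with overlapping groups (-1.8, -2.34, -2.71 and -2.58 in controls, -1.04, -1.82, -1.27 and -1.05 in KD33), and the mitochondrial co-chaperonin gene Hspe1 fell by 0.34 without overlap. Of 22 oxidative stress genes 4 rose and 2 fell (1 and 0 with 3 samples a group; 1 rose without KD33 4 and 2 without control 2 or 4; blocked 4 and 4), and the haem oxygenase gene Hmox1 rose by 0.43 without overlap. Of 23 p53 targets 2 rose and 2 fell (blocked 5 and 2). The antiproliferative gene Btg2 rose by 0.44 and the nuclease gene Aen fell by 0.46, each without overlap.

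Interferon response genes were higher on every slide but unevenly so. The list median was 0.7 over 28 genes, and within slides 1 to 4 it was 0.6, 0.17, 1.01 and 1.04. Of the members 5 rose and none fell, against 12 with the slide as a block and 0 with 3 samples a group. Without KD33 replicate 2 the count was 24 and without control replicate 1 it was 21, while it was 2 without KD33 replicate 1, 3 or 4 or control replicate 3 or 4. Isg15, a ubiquitin-like antiviral protein gene, read 1.63, -0.53, -0.35 and -0.3 in controls and 2.68, 0.17, 1.93 and 1.98 in KD33. Control replicate 1 was the highest control and KD33 replicate 2 the lowest KD33 array, so the groups overlapped although each within-slide difference was positive (1.05, 0.7, 2.28 and 2.28). Isg15 missed the threshold (1.58, SE 0.51, limma, adjusted p = 0.0559) and passed with the slide as a block (adjusted p = 0.0294). Oas1a, an antiviral oligoadenylate synthetase gene, read 0.68, -0.79, -0.77 and -0.7 in controls and 1.42, -0.12, 0.87 and 0.91 in KD33, a change of 1.16 (SE 0.34, limma, adjusted p = 0.0352). Its call was lost without KD33 replicate 1, 3 or 4 or control replicate 2, 3 or 4 (adjusted p up to 0.097). The antigen-presenting molecule genes H2-K1 and H2-D1 rose by 0.46 and 0.54.

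The interferon-stimulated response element core, GAAA followed after any 2 bases by GAAA, is shown in capitals in the 250 bases before Isg15 (chr4:156200819-156201068, minus strand) and Oas1a (chr5:120907526-120907775, minus strand; RefSeq, GRCm38.p6).
Isg15: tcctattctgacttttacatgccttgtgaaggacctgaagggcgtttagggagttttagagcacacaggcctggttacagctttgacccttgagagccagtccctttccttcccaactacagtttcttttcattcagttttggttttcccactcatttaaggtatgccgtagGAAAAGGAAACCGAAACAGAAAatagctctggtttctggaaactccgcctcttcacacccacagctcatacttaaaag
Oas1a: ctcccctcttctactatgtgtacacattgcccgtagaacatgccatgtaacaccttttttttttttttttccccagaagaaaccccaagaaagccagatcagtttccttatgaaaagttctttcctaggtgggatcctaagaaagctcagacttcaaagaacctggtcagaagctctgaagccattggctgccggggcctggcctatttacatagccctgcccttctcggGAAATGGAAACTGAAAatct
It was matched 3 times before Isg15 and 2 times before Oas1a, overlapping copies included. On either strand it was found before 10 of 23 list members (43.5%) and before 413 of 13271 tested genes (3.11%). Of 5 members called higher 2 held it (40%). The list holds known interferon genes, so the excess over all genes describes the list and not KD33.

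**Figure D4:**
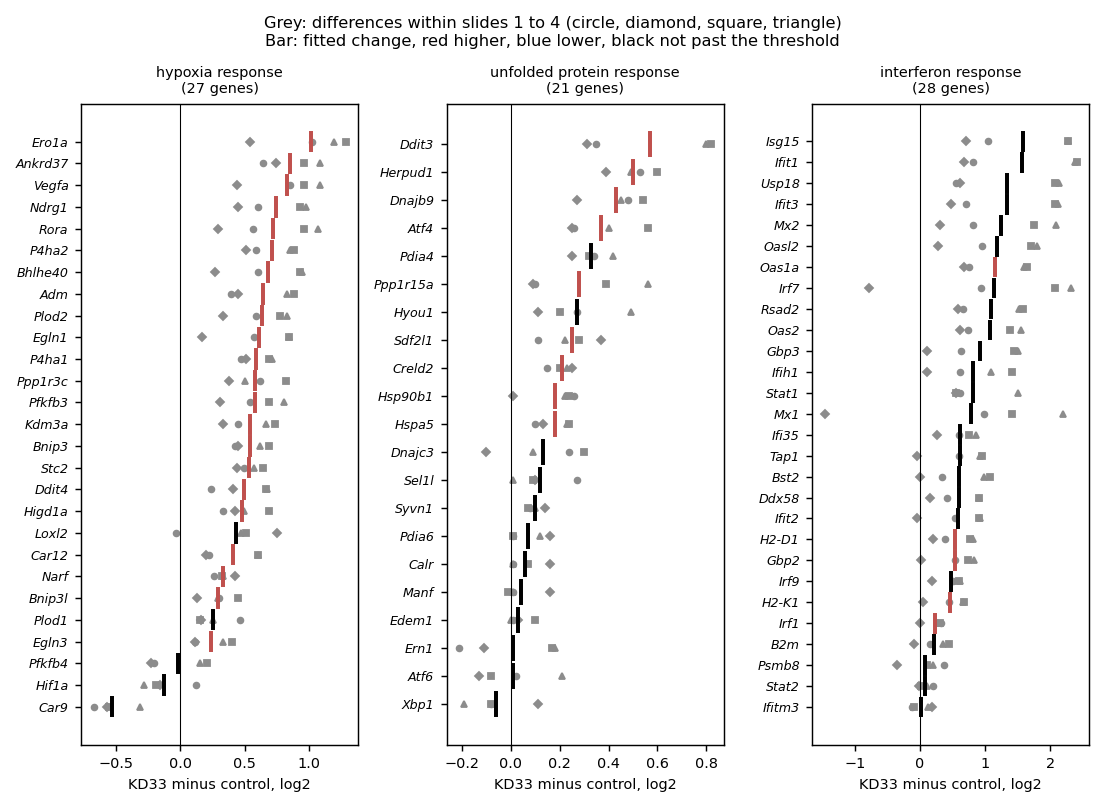
KD33 minus control differences on the log2 scale for each measured member of the hypoxia, unfolded protein and interferon response lists. Grey symbols are the differences within slides 1 to 4, and bars are fitted changes, red where higher, blue where lower and black where not past the threshold; 22 of 27 hypoxia bars are red, while interferon genes such as Isg15 reach 2.28 on slides 3 and 4 and 0.7 on slide 2.

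Of the inhibitors of cyclin-dependent kinases, the Ink4 locus genes Cdkn2a and Cdkn2b were higher in KD33. Whether this follows from Cbx7 was not tested. Of 7 inhibitor genes 3 rose and 1 fell, with a median of 0.23. Cdkn2a, which encodes p16Ink4a and p19Arf, read 0.74, 0.33, 0.2 and 0.31 in controls and 1.22, 1.02, 1.09 and 1.2 in KD33, a rise of 0.73 without overlap (SE 0.11, limma, adjusted p = 0.000992). Its neighbour Cdkn2b, which encodes p15Ink4b, read -2.37, -2.51, -2.64 and -2.64 in controls and -1.86, -1.58, -1.3 and -1.57 in KD33, a rise of 0.97 without overlap (SE 0.12, limma, adjusted p = 0.000433). Both passed with 3 samples a group. In the ES cells Cdkn2a changed by 0.49 and Cdkn2b by -0.45 (limma, adjusted p = 0.00483 and 0.0176). The imprinted inhibitor gene Cdkn1c fell by 0.62, with overlapping groups. Of 34 proliferation genes 8 fell and none rose, with a median of -0.13, and 14 fell with the slide as a block but 1 with 3 samples a group. The count was 2 without KD33 replicate 3, 3 without KD33 4 or control 4, 4 without KD33 1 or control 3, and 5 without control 2. The mitotic kinase gene Plk1 read 3.79, 3.87, 3.84 and 3.8 in controls and 3.39, 3.72, 3.45 and 3.43 in KD33, a fall of 0.33 without overlap (SE 0.07, limma, adjusted p = 0.00603). Ccnd2, a G1 cyclin gene, fell by 0.33. Mki67, the usual proliferation marker, differed by 0.06 (limma, adjusted p = 0.579).

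Glycolysis and glucose uptake genes were higher: 9 of 26 rose and none fell, with a median of 0.2 (14 with the slide as a block, 6 with 3 samples a group). Hk2, the inducible hexokinase gene, read 3.97, 3.92, 3.7 and 3.79 in controls and 4.53, 4.32, 4.55 and 4.64 in KD33, a rise of 0.67 without overlap (SE 0.08, limma, adjusted p = 0.000217). Slc16a3, which exports lactate, read 5.58, 5.43, 5.45 and 5.44 in controls and 5.89, 5.81, 5.9 and 6 in KD33, a rise of 0.42 without overlap (SE 0.06, limma, adjusted p = 0.00082). The aldolase gene Aldoc and the phosphofructokinase gene Pfkp each rose by 0.54, and the glycogen branching enzyme gene Gbe1 rose by 0.52. The lactate dehydrogenase gene Ldha differed by 0.22 (limma, adjusted p = 0.198), with -0.1 on slide 1. Several of these genes are also known Hif1a targets. Of list members with a promoter 20 of 25 (80%) held ACGTG or GCGTG, and of those called higher 7 of 9 did (77.8%). Over all tested genes with a promoter 56.4% held it. The excess over all genes describes the list and not KD33, and a cause of the rise was not tested.

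Genes of the pentose phosphate pathway and of nucleotide synthesis, which supply ribose and bases to dividing cells, were lower: 11 of 22 fell and none rose, with a median of -0.26. The count was 4 without KD33 replicate 3 or 4, 6 without control replicate 4, and 2 with 3 samples a group. The pentose phosphate enzyme gene Taldo1 read 4.22, 4.37, 4.25 and 4.26 in controls and 3.8, 4.2, 3.89 and 3.9 in KD33, a change of -0.33 without overlap (SE 0.08, limma, adjusted p = 0.0168), lost without KD33 replicate 3 or 4 (adjusted p up to 0.0542). The pyrimidine synthesis gene Umps fell by 0.3. Ribosome biogenesis genes fell in 7 of 20 cases and rose in none, with a median of -0.17. The count was 4 without KD33 replicate 1, 3 or 4 or control replicate 2, 3 or 4, and 2 with 3 samples a group. Bop1, a factor of ribosomal RNA processing, read 1.34, 1.22, 1.39 and 1.47 in controls and 0.82, 0.99, 0.69 and 0.73 in KD33, a fall of 0.54 without overlap (SE 0.08, limma, adjusted p = 0.000972). Rrp9, a protein of small nucleolar particles, fell by 0.41.

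**Figure D5:**
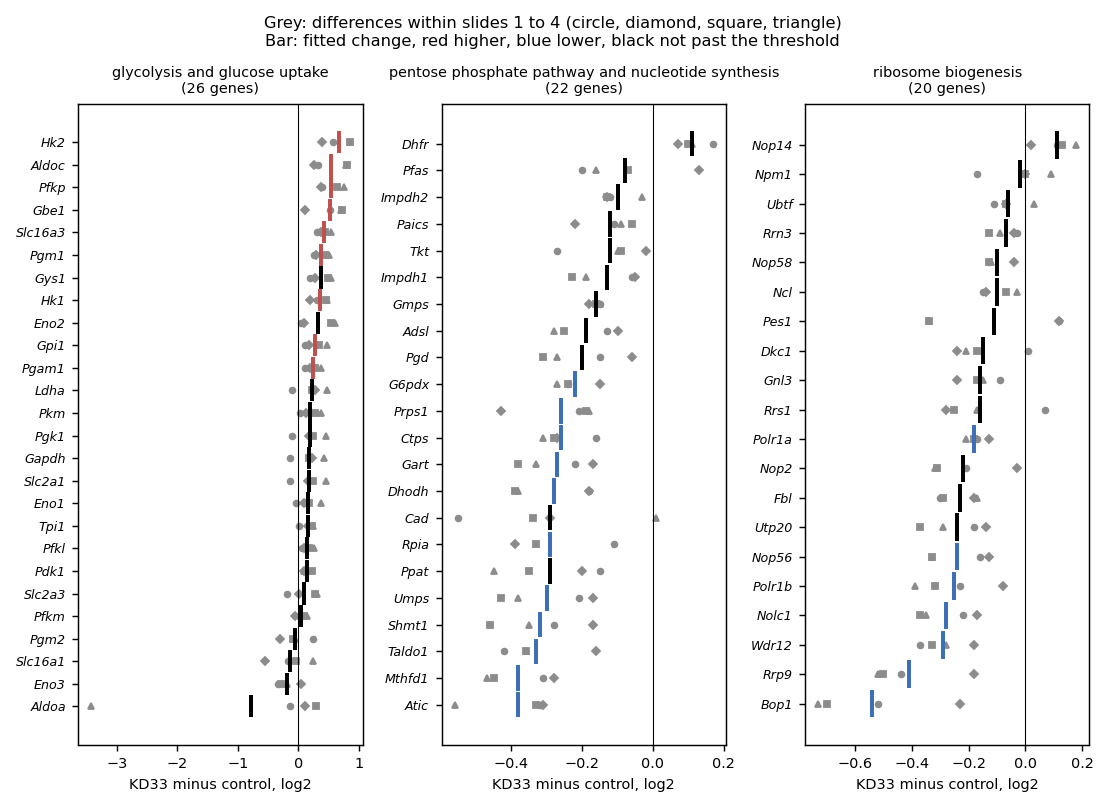
KD33 minus control differences on the log2 scale for each measured member of the glycolysis and glucose uptake, pentose phosphate and nucleotide synthesis, and ribosome biogenesis lists. Grey symbols are the differences within slides 1 to 4, and bars are fitted changes, red where higher, blue where lower and black where not past the threshold; the glycolysis list has 9 red and no blue bars, and the other lists have 11 and 7 blue and no red bars.

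Few mitochondrial genes passed. Of 72 subunits of oxidative phosphorylation 3 fell and none rose, with a median of -0.08 (19 fell and 1 rose with the slide as a block, and none passed with 3 samples a group, where 1054 genes passed in all). No subunit passed without KD33 3 or 4 or control 3 or 4, 1 fell without KD33 1, and 10 and 7 fell without KD33 2 and control 1. Of 23 genes of the citric acid cycle and pyruvate oxidation 2 rose and 4 fell (2 fell without KD33 1, 3 or 4 or control 3 or 4, blocked 3 and 9). Sdha, the flavoprotein of succinate dehydrogenase, read 3.97, 3.87, 3.89 and 3.91 in controls and 4.39, 4.37, 4.32 and 4.35 in KD33, a rise of 0.45 without overlap (SE 0.04, limma, adjusted p = 5.15e-05). The pyruvate carboxylase gene Pcx rose by 0.35, and Pdha1, a subunit of pyruvate dehydrogenase, fell by 0.28.

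Of 25 cholesterol synthesis genes 2 rose and 4 fell (0 and 3 with 3 samples a group, blocked 5 and 6). Msmo1, a sterol demethylase gene, read 3.49, 3.37, 3.32 and 3.35 in controls and 2.93, 2.75, 2.69 and 2.72 in KD33, a fall of 0.61 without overlap (SE 0.06, limma, adjusted p = 1e-04). Of 15 fatty acid synthesis genes 3 rose and 1 fell (1 rose without KD33 3 or 4 or control 4, blocked 3 and 3), the last being the acetyl-CoA carboxylase gene Acaca, by 0.39. Of 19 fatty acid oxidation genes 4 rose and none fell (1 with 3 samples a group, and 2 without KD33 1, 3 or 4 or control 2, 3 or 4), but 4 rose and 4 fell with the slide as a block. Those that rose included the pyruvate dehydrogenase kinase gene Pdk4, by 0.5. Of 24 lysosome and autophagy genes 6 rose and 1 fell (1 and 0 with 3 samples a group, and 3 rose without KD33 4, blocked 8 and 3). The autophagosome protein gene Map1lc3b read 2.81, 2.81, 2.81 and 2.84 in controls and 3.14, 3.02, 3.12 and 3.11 in KD33, a rise of 0.28 without overlap (SE 0.04, limma, adjusted p = 0.000642). Of 14 iron and haem genes 3 rose and 1 fell (blocked 3 and 2), and the transferrin receptor gene Tfrc rose by 0.52 without overlap.

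The 12 genes with the largest rise that had the same sign on all slides, predicted names left out, are given from the largest. They were Sprr2g, Cst9, Mcpt1, Ppbp, Ctss, Topaz1, Ifi202b, Barx2, Ifi204, Usp26, Ifi27 and Stra8. Among them, the testis gene Topaz1 read -6.51, -6.21, -6.28 and -6.58 in controls and -3.87, -5.2, -4.5 and -4.61 in KD33. That is a rise of 1.85 without overlap (SE 0.21, limma, adjusted p = 0.000191), with 3 of 4 control arrays above background. Barx2, a homeobox gene of epithelia and muscle, read -1.29, -1.41, -1.09 and -2.13 in controls and -0.29, 0.57, 0.97 and 0.05 in KD33, a rise of 1.81 without overlap (SE 0.4, limma, adjusted p = 0.00981). The protease inhibitor gene Cst9 and the platelet chemokine gene Ppbp were above background on no control array and were at least 2.54-fold and 1.54-fold higher. Among the 12 largest falls outside the lists, the lipoxygenase gene Alox15 read -4.87, -3.67, -4.6 and -4.55 in controls and -6.5, -6.38, -7.42 and -7.44 in KD33. Its fall of 2.51 was without overlap (SE 0.32, limma, adjusted p = 0.000422), but 2 of 4 KD33 arrays were not above background, so that its size is not exact.

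The change in EB9 was set beside that in the ES cells by a test of the difference between both effects, over all 15 arrays. Over all genes 6285 differed (29.7%, limma, adjusted p under 0.05). T differed by -2.79 in EB9 and by 1.01 in ES cells, a difference of effects of -3.8 (SE 0.53, limma, adjusted p = 0.000211). Sp5 fell in EB9 and rose by 1.42 in ES cells (difference -2.53, SE 0.32, limma, adjusted p = 9.54e-05), and Fgf8 fell in EB9 and rose by 0.71 in ES cells (difference -2.06, SE 0.33, limma, adjusted p = 0.000559). Mest changed by 0.12 in ES cells (difference -2.4, SE 0.15, limma, adjusted p = 6.37e-07). Hk2 rose in EB9 and fell by 0.23 in ES cells (difference 0.9, SE 0.11, limma, adjusted p = 8.17e-05). The effects on Ero1a (0.74 in ES cells, difference 0.26, SE 0.14, limma, adjusted p = 0.171), Ddit3 (0.54 in ES cells, difference 0.04, SE 0.14, limma, adjusted p = 0.89) and Xlr4b (-3.8 in ES cells, difference 0.88, SE 0.42, limma, adjusted p = 0.139) were not shown to differ between the stages. These 3 genes do not stand for their lists. The effect differed for 14 of 27 hypoxia, 10 of 21 unfolded protein and 8 of 13 Xlr and Rhox members. Ndrg1 and Dnajb9 were among those that differed (differences 0.8 and 0.59, limma, adjusted p = 0.000489 and 0.000271). In ES cells 8 hypoxia members were higher in KD33 and 7 lower.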

How the data were processed

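Total RNA of 15 samples was hybridised to 1-colour Agilent arrays. The deposited scanner files hold intensity values made with Agilent Feature Extraction 10.7.3.1, per the file headers, which background-subtracted the processed signal within each array. The authors' deposited value table holds log2 values; these differed by at most 0.000154 from normexp (offset 50) and quantile normalisation of the scanner files with control spots included, and served as an alternative. The direction is as labelled.

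Of 39429 probes without control function, 26424 were named by RefSeq accession, 3983 by a current symbol and 826 by an older one, and 8196 kept the name in the file. The log2 processed signal minus the 75th percentile of its array was used. Probes well above background on at least 3 arrays of a group were kept (27248), and the brightest probe stood for its gene (21184 genes). Where a group had no array above background, a fold is given as "at least", from the bright group's mean against the mean, per array, of the higher of the dim probe's value and the lowest signal well above background. Group means over all 15 arrays were fitted with limma 3.58.1 in R 4.3.3 (lmFit, eBayes, two-sided), with Benjamini-Hochberg adjustment over all genes and a threshold of 0.05. The number of arrays limits the precision. The fit was tested on simulated data. The simulated arrays were independent and had no slide effect, so that test does not cover arrays that vary together.

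For the EB9 and the ES KD33 arrays the replicate number equals the slide, while ES controls 2, 3 and 4 lay on slides 1, 2 and 3. Deviations from the group means of EB9 arrays with the same number correlated at 0.55, 0.3, 0.47 and 0.34. The numbers were therefore taken to pair the samples, although among pairs of different number KD33 2 with control 3 reached 0.36 and KD33 4 with control 1 reached 0.4, and the slide was fitted as a block in an alternative. Named genes were Cbx7, the 12 largest rises and falls with 1 sign on all slides, and from each of 54 lists the first 3 measured members and up to 5 past the threshold; not all are named. The lists and genes were chosen with earlier results of these data known. The Dixon criterion for 4 arrays was 0.829. Promoters and coordinates of sequences came from RefSeq (GRCm38.p6), and probe positions from the file headers' build, mm9.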

Additional observations from a re-analysis of the deposited data

Results flagged for a closer look

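In 23 of 290 groups of 4 EB9 arrays, for 145 named genes, 1 array stood apart from the other 3 by the Dixon criterion. Chance flags about 1 in 20 groups. In KD33 replicate 1 the log2 level of Nppa (-4.55, below the nearest at -3.52) stood apart. In KD33 replicate 2 the log2 levels of Hbb-bh1 (6.61, below the nearest at 7.36), Hoxb9 (-4.89, above the nearest at -5.42), Xlr4a (-5.76, above the nearest at -7.02, the other 3 not above background), Fzd10 (0.06, above the nearest at -1.15), Apcdd1 (-1.77, above the nearest at -2.51), Gdf6 (-3.39, below the nearest at -3.22), Plk1 (3.72, above the nearest at 3.45) and Umps (3.28, above the nearest at 3.07) stood apart. In KD33 replicate 3 the log2 levels of Cer1 (-7.98, above the nearest at -8.98, none of the 4 above background) and Dnajb9 (-0.12, above the nearest at -0.26) stood apart. In KD33 replicate 4 the log2 level of Atf3 (0.91, above the nearest at 0.77) stood apart. In control replicate 1 the log2 levels of Eomes (-1.6, above the nearest at -1.9), Etv2 (-0.57, below the nearest at -0.22), Afp (2.2, above the nearest at 1.83), Ankrd37 (2.96, above the nearest at 2.61), Isg15 (1.63, above the nearest at -0.3), Oas1a (0.68, above the nearest at -0.7) and Slc16a3 (5.58, above the nearest at 5.45) stood apart. In control replicate 2 the log2 levels of Xlr3b (-2.55, above the nearest at -3.15), Gli1 (0.9, below the nearest at 1.22) and Pdha1 (0.73, above the nearest at 0.6) stood apart. In control replicate 4 the log2 level of Map1lc3b (2.84, above the nearest at 2.81) stood apart.

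Of the named genes 89 differed between stages in their KD33 minus control change (limma, adjusted p under 0.05), and 29 passed the threshold in both stages with opposite signs. Over all genes 29.7% differed between stages, and opposite signs were not counted over all genes. Most named genes were picked because they passed in EB9 with a large change, so both counts partly follow from that choice. Genes lower in EB9 and higher in ES cells, with the difference of effects first, were Fgf8 (-2.06 with -1.35 in EB9 and 0.71 in ES cells), Sox18 (-0.87 with -0.42 in EB9 and 0.45 in ES cells), Pax1 (-3.52 with -2.49 in EB9, where no KD33 array was above background and the sizes are not exact, and 1.03 in ES cells), Msx1 (-1.37 with -0.56 in EB9 and 0.81 in ES cells) and Phlda2 (-2.24 with -1.22 in EB9 and 1.02 in ES cells). The same held for Fgf15 (-2.22 with -1.07 in EB9 and 1.15 in ES cells), Hoxb6 (-2.41 with -1.26 in EB9 and 1.14 in ES cells, where 1 of 3 control arrays was above background), Hoxb7 (-1.62 with -1.04 in EB9 and 0.59 in ES cells), Cdkn1c (-1.49 with -0.62 in EB9 and 0.86 in ES cells) and Sp5 (-2.53 with -1.11 in EB9 and 1.42 in ES cells). Further such genes were Lef1 (-1.41 with -0.73 in EB9 and 0.68 in ES cells), Cfc1 (-2.33 with -1.68 in EB9 and 0.65 in ES cells), Bmp7 (-0.71 with -0.42 in EB9 and 0.29 in ES cells), Gata2 (-1.87 with -0.48 in EB9 and 1.39 in ES cells) and Gli1 (-0.87 with -0.48 in EB9 and 0.38 in ES cells). To these were added Ccnd2 (-3.11 with -0.33 in EB9 and 2.78 in ES cells), Taldo1 (-0.74 with -0.33 in EB9 and 0.41 in ES cells), Acaca (-0.69 with -0.39 in EB9 and 0.31 in ES cells) and Bop1 (-0.89 with -0.54 in EB9 and 0.35 in ES cells). The remaining one was Rrp9 (-0.99 with -0.41 in EB9 and 0.58 in ES cells). Genes higher in EB9 and lower in ES cells were Mapt (1.19 with 0.54 in EB9 and -0.65 in ES cells), Junb (0.95 with 0.63 in EB9 and -0.31 in ES cells), Fosl2 (1.57 with 0.63 in EB9 and -0.94 in ES cells), Trib3 (0.85 with 0.52 in EB9 and -0.33 in ES cells) and Btg2 (1.26 with 0.44 in EB9 and -0.82 in ES cells). Others of this kind were Cdkn2b (1.41 with 0.97 in EB9 and -0.45 in ES cells), Hk2 (0.9 with 0.67 in EB9 and -0.23 in ES cells), Pfkp (1.21 with 0.54 in EB9 and -0.67 in ES cells) and Pcx (0.92 with 0.35 in EB9 and -0.58 in ES cells).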

How the results depend on the processing

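Of 131 named genes past the threshold all kept their direction under every alternative run, and 81 stayed past it under all that gave a value. Of the 144 genes, 27 lost the call with replicates 3 and 4 counted as 1 (added after the data were seen) and 37 with the 8 EB9 arrays alone. These losses are not marked gene by gene above. The adjusted p of a single gene therefore does not show that its call holds in either fit. The replicate block of the slide took Axin2, Bmp4 and Isg15 past the threshold and changed no other call among the 144 genes. Causes of the changes below were not tested.

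The 3211 genes became 5664 with the replicate block (2862 higher, 2802 lower), 5627 with array weights (3128 and 2499), 1133 with the EB9 arrays alone (655 and 478) and 1054 with replicates 3 and 4 counted as 1 (601 and 453). They became 2265 of 30818 without a filter on dim probes, where 1010 were lower. The replicate block on the 8 EB9 arrays gave 2373 (1264 higher and 1109 lower). Normexp gave 2603 (1398 and 1205) and the authors' values 2582 (1380 and 1202). Median centring gave 2680 (1370 and 1310). Leaving out 1 array gave 1807 to 4393 (986 to 2340 higher, 821 to 2053 lower).

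With the EB9 arrays alone, list counts were 6 lower (streak), 0 (visceral endoderm), 4 (Wnt targets), 2 (BMP targets), 3 (pentose and nucleotide), 1 (proliferation) and 2 (ribosome biogenesis), and 5 higher (naive pluripotency), 2 (germ line), 3 (unfolded protein), 0 (interferon) and 4 (glycolysis). With the replicate block on those 8 arrays they were 1 (visceral endoderm), 5 (unfolded protein), 5 (glycolysis), 7 (pentose and nucleotide) and 5 (proliferation). With the replicate block over 15 arrays they were 12 (interferon), 14 (glycolysis) and 14 (proliferation).

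With replicates 3 and 4 counted as 1 they were 6 (streak), 1 (visceral endoderm), 3 (endothelium), 6 (naive pluripotency), 4 (germ line), 3 (BMP targets), 3 (unfolded protein), 0 (interferon), 2 (pentose and nucleotide), 1 (proliferation) and 2 (ribosome biogenesis). Normexp gave 7 (pentose and nucleotide), 5 (proliferation) and 3 (ribosome biogenesis), and the authors' values gave 6, 5 and 3. No filter gave 5 (visceral endoderm), 2 (interferon), 4 (proliferation) and 4 (ribosome biogenesis). Array weights gave 25 (interferon) and 16 (glycolysis), and median centring gave 4 (unfolded protein) and 3 (interferon).

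Leaving out 1 array gave 2 to 13 (visceral endoderm), 6 to 12 (naive pluripotency), 4 to 10 (unfolded protein), 2 to 24 (interferon), 4 to 14 (pentose and nucleotide), 2 to 10 (proliferation) and 4 to 9 (ribosome biogenesis). It moved the median of neuronal genes from -0.2 to 0.17 and of Nodal ligands and receptors from -0.05 to 0.08. Below the threshold, Nanog ranged from -0.19 to 0.03 and was 0.17 as the mean of its probes, Asns ranged from -0.05 to 0.03 and was 0.08 with array weights, and Dusp6 was 0 with array weights. The dimmer Cbx7 probe ranged from -0.86 to 0.24; it lay above background on 2 of 4 arrays in each group, which limits what it can show.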
